A study of Homo sapiens with 12 samples.

Results

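The genes described here are the chains of nonmuscle myosin II and the enzymes that switch it on and off. They are 10 genes of the 60234 in the count table, taken by gene symbol. The 3 heavy chain genes are MYH9, MYH10 and MYH14. MYL6 encodes an essential light chain, and MYL9, MYL12A and MYL12B encode regulatory light chains. MYLK encodes myosin light chain kinase, and PPP1R12A and PPP1R12B encode subunits that target a phosphatase to myosin. The cells were of MDA-MB-231, an established cell line from a human breast cancer that the labels class as triple negative. A population named fast, which had been picked out by the trajectory of its cells, was compared with the parental population. There were 12 RNA libraries in 2 batches, and each batch held 3 fast and 3 parental libraries. The labels name no other agent, genotype or time. The series calls the libraries technical replicates, and nothing in the labels ties them to separate captures or cultures, so p-values measure only the spread between these libraries, which may be technical.

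Nonmuscle myosin II is the motor that pulls on actin filaments in cells other than muscle. Each molecule joins a pair of heavy chains with a pair of essential and a pair of regulatory light chains, and molecules bundle into short bipolar filaments. The heavy chain sets the isoform: MYH9 gives myosin IIA, MYH10 myosin IIB and MYH14 myosin IIC. IIA moves faster on actin, while IIB holds tension for longer and is often found toward the rear of crawling cells. Phosphate on the regulatory light chain, added by kinases such as MYLK and the ROCK kinases and removed by myosin phosphatase, unfolds the molecule and lets it form filaments and contract. In breast cancer lines this motor is known for its part in migration and in squeezing through narrow spaces.

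The 3 regulatory light chains are related in sequence, and MYL12A and MYL12B are near copies of each other, which bears on how their counts can be read. The stretches below are the same 90 coding bases of the 3 regulatory light chains, near the start of the protein, read from the principal GENCODE 29 transcripts (GRCh38), 5′ to 3′. They lie at coding bases 37 to 126 in MYL12A and 40 to 129 in MYL12B and MYL9. Capitals mark bases that differ from MYL12A.
MYL12A: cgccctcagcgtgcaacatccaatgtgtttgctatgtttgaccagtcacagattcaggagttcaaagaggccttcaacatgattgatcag
MYL12B: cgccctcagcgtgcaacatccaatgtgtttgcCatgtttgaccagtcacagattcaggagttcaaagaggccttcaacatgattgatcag
MYL9: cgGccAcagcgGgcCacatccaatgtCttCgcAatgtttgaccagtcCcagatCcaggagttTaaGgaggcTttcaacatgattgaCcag
MYL12B differs from MYL12A at 1 of these 90 bases and MYL9 at 13. Over the whole coding sequence MYL12A and MYL12B are identical at 494 of 516 aligned bases (95.7%), with a longest identical run of 77 bases, while MYL9 is 79.1% identical to MYL12A and 80.5% to MYL12B. Of all 50-base windows of the longest transcript, 9.41% of those of MYL12A and 9.42% of those of MYL12B also occur in another gene, mostly in each other and in pseudogene copies. The share is 2.85% for PPP1R12B, 1.52% for MYLK, 0.990% for MYL6, 0.613% for MYH9 and 0.0730% for MYH14, and none was found for MYH10, MYL9 or PPP1R12A. Read length and the treatment of reads with several matches were not given in the sources at hand, so the split of counts between MYL12A and MYL12B is uncertain to that extent.

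Total counts ran from 53267145 to 75944907 per library, and mitochondrially encoded genes took 2.08% to 3.41% of them. Levels are given in CPM, after TMM normalisation of the library totals, and 1 CPM was about 53.3 counts in the shallowest library. VIM, a marker of mesenchymal cells that the line expresses strongly, had means of 5050 CPM in parental and 6912 CPM in fast cells, and the epithelial cadherin CDH1 had 11 counts in all. The epithelial marker EPCAM was at 11.2 CPM in both populations, and the receptor genes ERBB2, ESR1 and PGR were at 62.4, 0.139 and 0.477 CPM in parental and 59.0, 0.139 and 2.05 CPM in fast cells. Of other cell types, MYOCD (smooth muscle) and DCN and LUM (fibroblasts) were at 0 counts in every library. Of the leukocyte markers, PTPRC had 12 counts in all, and HLA-DRA was lower in fast libraries, by far more in batch 1 (log2 fold change -2.54) than in batch 2 (-0.69; edgeR adjusted p of the difference between batches = 1.29e-21). The 5 fibroblast markers summed to 14.1 to 16.2 CPM in parental and 9.05 to 11.7 CPM in fast libraries. Most of that sum was COL1A1, with means of 14.2 CPM in parental and 9.32 CPM in fast libraries (-0.61 ± 0.06, edgeR adjusted p = 2.82e-10). The 4 endothelial markers matched summed to 8.0 to 10.5 CPM in parental and 9.33 to 12.1 CPM in fast libraries. KDR made up most of it, with means of 8.60 CPM in parental and 10.8 CPM in fast libraries (0.34 ± 0.06, edgeR adjusted p = 1.24e-05). The part of these markers in the members' results was not tested.

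In these bulk libraries, fewer cells that express a gene and less RNA of it per cell cannot be told apart. Across the 10 genes, fast cells had less MYH10 and MYL9 and slightly less MYH9. They had more MYLK, MYL12A and MYL12B, and slightly more PPP1R12A and MYL6. MYH14 was barely detected in either population. The libraries of the populations did not overlap, in the same direction in both batches, for every member but MYH14 and PPP1R12B, as for 47.9% of all genes tested (60.5% in batch 1 and 61.2% in batch 2, each in either direction). With edgeR's quasi-likelihood test over both batches and Benjamini-Hochberg adjusted p under 0.05, 5 of the 9 members tested were higher, 3 were lower and 1, PPP1R12B, was not called. Of all 22668 genes tested, 63.4% were called (31.9% higher and 31.5% lower), and of the 10567 genes with a mean of at least 10 CPM 81.1% were called, so the members' share of calls is near that of other well-expressed genes. Within batch 1 the members gave 5 higher and 4 lower calls (all genes: 56.1% called, 29% higher and 27.1% lower), and within batch 2 they gave 5 higher, 3 lower and 1 uncalled (all genes: 56% called, 27.4% higher and 28.6% lower). The members' median log2 fold change, fast over parental, was 0.19 against 0.01 for all genes, and their median absolute value was 0.53 against 0.32.

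**Figure D1:**
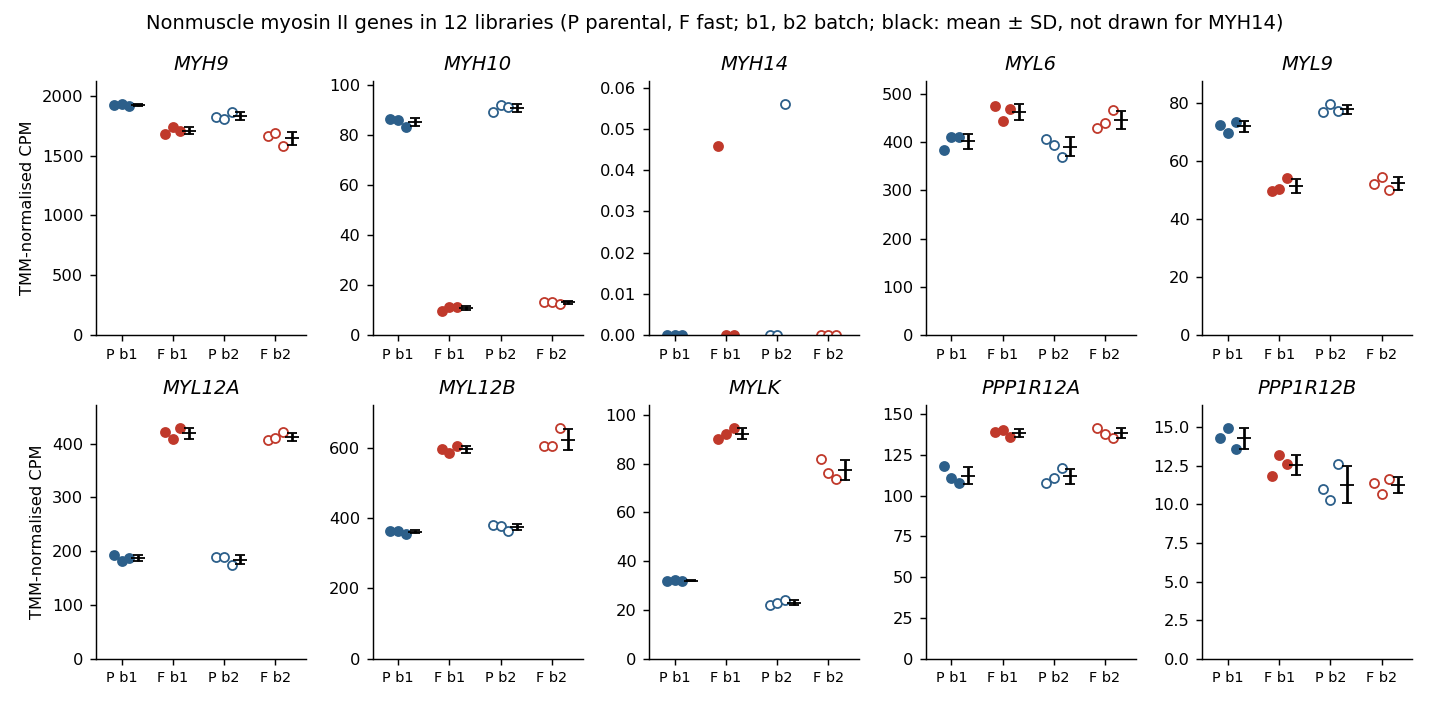
TMM-normalised CPM (vertical axes, linear, from 0) of each of the 10 genes in the 12 libraries, by population and batch. Each point is 1 library and the black bars are the mean ± SD of 3 libraries, not drawn for MYH14. Fast and parental libraries stand apart in both batches for all genes but MYH14 and, in batch 2, PPP1R12B.

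Among the heavy chains, MYH10, the chain of myosin IIB, had 9.71, 11.3 and 11.1 CPM in the 3 fast libraries of batch 1 and 86.3, 86.0 and 83.4 CPM in the parental ones. In batch 2 MYH10 had 13.4, 13.4 and 12.5 CPM in fast and 89.0, 92.1 and 91.2 CPM in parental libraries. All 6 fast libraries were far below all 6 parental libraries, with no value between 13.4 and 83.4 CPM. The MYH10 log2 fold change was -2.89 ± 0.04 (SE; 7.40-fold lower; edgeR with Benjamini-Hochberg adjustment, adjusted p = 8.90e-34), -3.0 ± 0.05 in batch 1 (7.97-fold) and -2.79 ± 0.05 in batch 2 (6.92-fold). A call with at least a 4-fold fall was made for 2.78% of all genes. The batches' effects on MYH10 differed by 0.21 ± 0.07, which edgeR did not call (adjusted p = 0.0824). That call was made in 4 alternatives, at adjusted p from 0.00958 to 0.0428, and without fast library 3 of batch 2 (0.0113) or parental library 3 of batch 2 (0.0277).

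MYH9, the chain of myosin IIA and the main heavy chain of this line, had 1684, 1738 and 1704 CPM in fast and 1920, 1930 and 1915 CPM in parental libraries of batch 1. In batch 2 it had 1668, 1685 and 1578 CPM in fast and 1819, 1803 and 1867 CPM in parental libraries. The populations did not overlap in either batch, but the shift was small. The MYH9 log2 fold change was -0.16 ± 0.02 (edgeR adjusted p = 1.17e-07), with -0.17 in batch 1 and -0.15 in batch 2. MYH14, the chain of myosin IIC, had 7 counts in total, 3 in 1 fast library and 4 in 1 parental library, and 0 in the other 5 libraries of each population. A count of 0 allows up to 0.0563 CPM in the shallowest library (3 counts, covering counting error only). MYH14 did not pass the low-count filter, and no fold is given.

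MYL6, the essential light chain among the members, which stabilises the lever arm of the heavy chain, ranged from 429 to 474 CPM in fast and from 370 to 411 CPM in parental libraries. Fast libraries were above parental ones in both batches, and the log2 fold change of MYL6 was 0.19 ± 0.03 (1.14-fold higher; edgeR adjusted p = 1.84e-07). The exons of MYL6 overlap those of MYL6B, its neighbour on the same strand, which had a log2 fold change of 0.17 ± 0.03 (edgeR adjusted p = 2.78e-06), so some reads cannot be told apart. MYL6B, an essential light chain that is also found outside muscle, had means of 157 CPM in parental and 177 CPM in fast libraries.

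The regulatory light chains went in both directions. MYL12A had 421, 408 and 428 CPM in fast and 193, 182 and 188 CPM in parental libraries of batch 1, and in batch 2 it had 406, 410 and 421 CPM in fast and 189, 190 and 174 CPM in parental libraries. Every fast library was above every parental library by a wide gap (406 against at most 193 CPM). The log2 fold change of MYL12A was 1.16 ± 0.03 (2.24-fold higher; edgeR adjusted p = 3.18e-28), with 1.16 in each batch, and a call with at least a 2-fold rise was made for 3.98% of all genes. MYL12B, which lies next to MYL12A on chromosome 18 and encodes a nearly identical protein, had 596, 586 and 605 CPM in fast and 365, 362 and 356 CPM in parental libraries of batch 1. In batch 2 MYL12B had 606, 606 and 657 CPM in fast and 381, 379 and 365 CPM in parental libraries. The ranges of MYL12B were far apart in both batches. Its log2 fold change was 0.73 ± 0.02 (1.66-fold higher; edgeR adjusted p = 3.01e-23), with 0.72 in batch 1 and 0.73 in batch 2.

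MYL9, the regulatory light chain best known from smooth muscle, was lower in fast cells. It had 49.7, 50.5 and 54.3 CPM in fast and 72.6, 69.8 and 73.8 CPM in parental libraries of batch 1, and 52.3, 54.6 and 50.2 CPM in fast and 76.9, 79.8 and 77.3 CPM in parental libraries of batch 2. All fast libraries were below all parental libraries, and the log2 fold change of MYL9 was -0.53 ± 0.03 (1.44-fold lower; edgeR adjusted p = 3.04e-16), with -0.49 in batch 1 and -0.57 in batch 2. Beside MYL9, the 9 smooth muscle markers examined gave 2 higher and 3 lower calls among 7 tested, and their summed level was 233 to 250 CPM in fast and 194 to 218 CPM in parental libraries, with MYOCD, their master regulator, at 0. Most of that sum was SMTN (221 CPM in fast and 171 CPM in parental libraries). TAGLN fell from 27.1 to 8.28 CPM (-1.71 ± 0.06; edgeR adjusted p = 1.44e-22) and ACTG2 from 0.774 to 0.0308 CPM (-4.51 ± 0.39; edgeR adjusted p = 3.19e-12), while ACTA2 rose from 2.58 to 4.85 CPM (0.92 ± 0.10; edgeR adjusted p = 8.70e-10). The smooth muscle heavy chain MYH11 was at 7.76 CPM in both populations. The part of these markers in the MYL9 result was not tested.

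**Figure D2:**
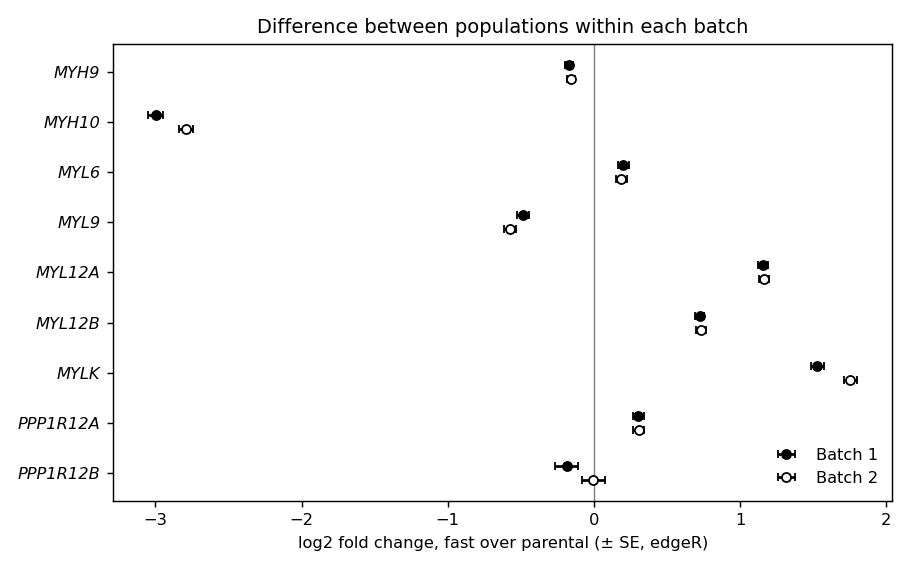
Log2 fold change, fast over parental (horizontal axis), with its SE for the 9 members tested (vertical axis), within batch 1 and batch 2. MYH10 lies near -3 and MYLK above 1.5 in both batches, and PPP1R12B is the member whose value is near 0 in batch 2.

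Of the enzymes, MYLK, which phosphorylates the regulatory light chain when calcium-bound calmodulin activates it, had 89.9, 92.3 and 94.6 CPM in fast and 31.8, 32.3 and 31.9 CPM in parental libraries of batch 1. In batch 2 MYLK had 82.0, 76 and 73.8 CPM in fast and 21.9, 22.8 and 23.9 CPM in parental libraries. MYLK was higher in every fast library than in any parental one, and both populations had lower levels in batch 2 than in batch 1. The log2 fold change of MYLK was 1.64 ± 0.04 (3.11-fold higher; edgeR adjusted p = 4.74e-27). It was 1.53 ± 0.04 in batch 1 (2.88-fold) and 1.75 ± 0.05 in batch 2 (3.37-fold), and the difference of 0.23 ± 0.06 was called by edgeR (adjusted p = 0.0225; 5.4% of all genes called). That call was lost without fast library 1 of batch 1 (adjusted p = 0.0713) and without parental library 1 of batch 2 (adjusted p = 0.0786).

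The phosphatase targeting subunit PPP1R12A (MYPT1), which brings the catalytic subunit to the regulatory light chain and so opposes MYLK, ranged from 135 to 142 CPM in fast and from 108 to 118 CPM in parental libraries. The ranges did not overlap, and its log2 fold change was 0.31 ± 0.03 (1.24-fold higher; edgeR adjusted p = 9.86e-12), close to its value in each batch (0.30 and 0.31). PPP1R12B (MYPT2), a related subunit best known from heart and skeletal muscle, had 11.9, 13.2 and 12.6 CPM in fast and 14.3, 15 and 13.6 CPM in parental libraries of batch 1, with no overlap. In batch 2 PPP1R12B had 11.4, 10.7 and 11.7 CPM in fast and 11, 10.3 and 12.6 CPM in parental libraries, which overlapped. PPP1R12B was called lower in batch 1 (-0.19 ± 0.08; edgeR adjusted p = 0.0366) and not in batch 2 (-0.0037 ± 0.08; edgeR adjusted p = 0.973), but the difference between batches was not called (0.18 ± 0.11; edgeR adjusted p = 0.410). The batch 1 call for PPP1R12B was lost without fast library 1 (adjusted p = 0.198), fast library 3 (0.0778), parental library 1 (0.0810) or parental library 2 (0.166) of that batch.

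Whether the counting used strand was not given in the sources at hand. Exons of another gene lie on the opposite strand of every member but MYH9 and MYL9, among them NDEL1 at MYH10 and MYLK-AS1 and MYLK-AS2 at MYLK, so a part of those members' counts may belong to the other gene. On the same strand, exons of PPP1R12B overlap those of AC099336.1, as those of MYL6 overlap MYL6B, so some of their reads cannot be told apart either.

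To compare members with each other, counts were divided by the length of the longest transcript and scaled to the same sum in every library, as in TPM. In fast cells the order of mean level was MYL12B (1169), MYL12A (812), MYL6 (695), MYH9 (532), PPP1R12A (58.0), MYL9 (44.2), MYLK (20.3), MYH10 (3.67), PPP1R12B (1.85) and, last, MYH14. In parental cells it was MYL12B (733), MYL6 (631), MYH9 (619), MYL12A (377), MYL9 (66.2), PPP1R12A (48.8), MYH10 (28.2), MYLK (6.85), PPP1R12B (2.07) and MYH14. Thus MYH10 stood above MYLK in parental cells and below it in fast cells. Only parental MYL6 (584 to 670) and MYH9 (577 to 651) overlapped among neighbours in these orders. With the principal transcript of MYL6, 901 in place of 1564 bases, MYL6 was at 1207 in fast and 1095 in parental cells. Its range in fast cells (1126 to 1280) then overlapped that of MYL12B (1147 to 1219). In parental cells MYL6 (1014 to 1163) then stood above MYL12B (721 to 748) and no longer overlapped MYH9, so its place depends on the length used.

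MYH10 made up 4.37% ± 0.27 of the heavy chain transcripts per length in parental cells and 0.688% ± 0.094 in fast cells (SD, n = 6 libraries). MYH9 made up 95.6% ± 0.27 and 99.3% ± 0.093. Per MYH10 transcript there were thus 21.95 ± 1.41 MYH9 transcripts in parental and 147 ± 21.0 in fast cells. Among regulatory light chains, the share of MYL9 was 5.63% ± 0.23 in parental and 2.18% ± 0.11 in fast cells. The share of MYL12A was 32% ± 0.90 in parental and 40.1% ± 0.88 in fast cells, and that of MYL12B 62.3% ± 0.77 and 57.7% ± 0.92. Summed regulatory light chain transcripts per heavy chain transcript were 1.82 ± 0.089 in parental and 3.79 ± 0.22 in fast cells, and the populations did not overlap (1.73 to 1.94 and 3.54 to 4.21). MYL6 per heavy chain was 0.976 ± 0.047 and 1.30 ± 0.076 with the longest transcripts, and 1.69 ± 0.082 and 2.25 ± 0.13 with the principal ones. MYL6B was left out of these ratios. MYLK per PPP1R12A was 0.140 ± 0.026 and 0.350 ± 0.036. Counts of MYLK were per gene and were divided by 1 length (10027 bases), so its transcripts were not told apart. These shares and ratios are described with no test, and RNA levels do not give the makeup of the protein complexes.

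**Figure D3:**
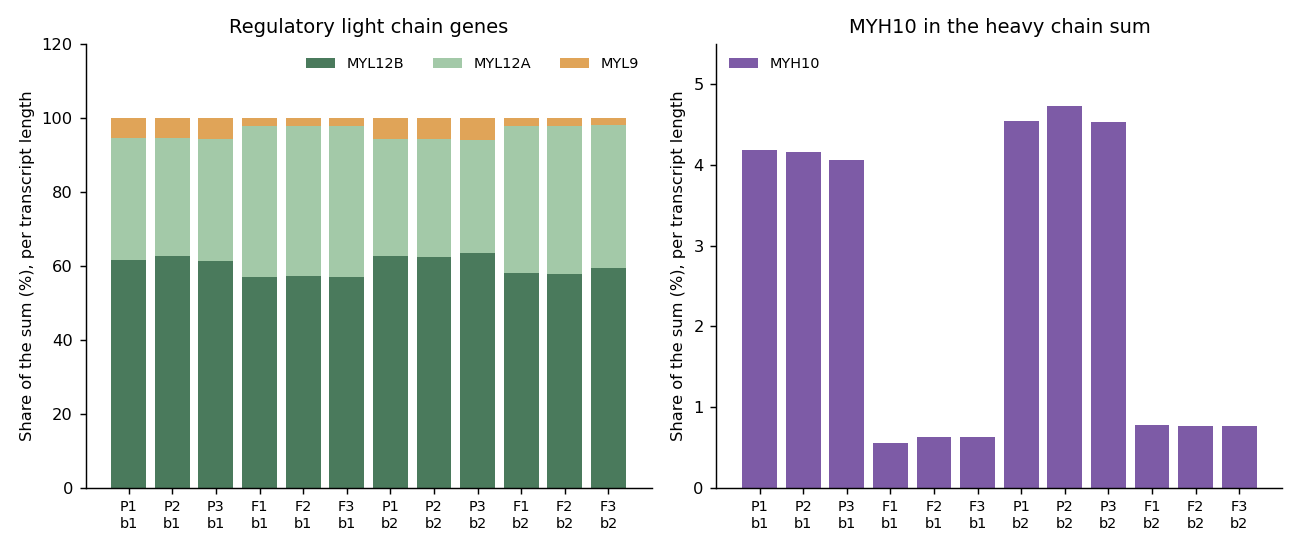
Share in percent (vertical axes) in the summed level per length of its family, for each of the 12 libraries (P parental, F fast, b batch): regulatory light chains as stacked bars on the left, MYH10 among heavy chains on the right. MYH10 takes 4.06% to 4.74% of heavy chain transcripts in parental and 0.558% to 0.778% in fast libraries.

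Each member was set beside the 10 nearest tested genes on each side with a mean of at least 1 CPM, leaving out other members. On chromosome 18 many genes around MYL12A and MYL12B were higher in fast cells as well: their 20 neighbours had a median log2 fold change of 0.70, and 15 of them were called higher and 1 lower. MYL12B (0.73) was 0.03 above that median and MYL12A (1.16) was 0.46 above it. Counted from the highest, MYL12A was only the 6th of 21 genes and MYL12B the 10th, and the neighbours' upper quartile was 1.09. When the neighbours' median was entered as an offset in the edgeR fit, the call for MYL12B was lost (0.03; adjusted p = 0.312) and that for MYL12A remained (0.46; adjusted p = 7.04e-17). MYH10 on chromosome 17 was the lowest of 21 genes, beside a neighbour median of 0.04, and MYLK on chromosome 3 was the highest of 21, beside 0.02. Neighbour medians were 0.19 for MYH9, 0.12 for MYL6, 0.09 for MYL9, 0.11 for PPP1R12A and 0.24 for PPP1R12B. With the offset PPP1R12B was called lower (-0.34; edgeR adjusted p = 7.78e-06), MYL6 kept its call at a smaller value (0.08; edgeR adjusted p = 0.0153) MYH9 was at -0.35 and PPP1R12A at 0.20. PPP1R12B, the 19th of 21 genes from the highest, was not called without the offset. The offset was entered as a fixed value, so adjusted p-values of these fits leave out the spread among the neighbours. With 25 genes on each side, PPP1R12A was 0.07 and MYL12B -0.07 relative to its neighbours' median.

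**Figure D4:**
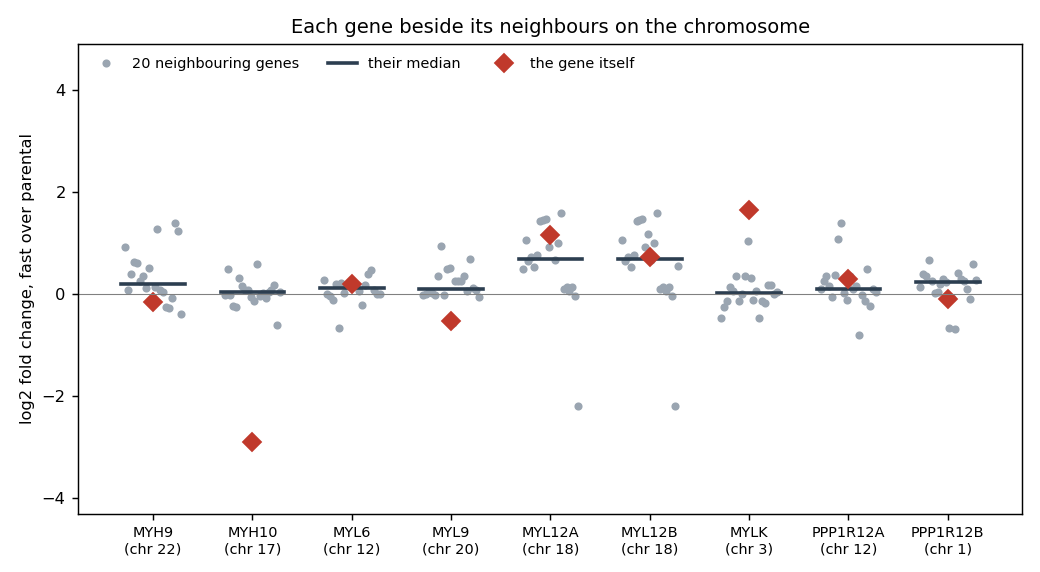
Log2 fold change, fast over parental (vertical axis), of each member tested and of its 10 nearest tested genes on each side, with the neighbours' median. MYH10 and MYLK stand outside all of their neighbours, while MYL12B lies at the median of its own.

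The other genes that act on this motor moved in both directions. Of 19 tested kinases and calmodulins that act on the regulatory light chain, 4 were higher, 12 lower and 3 not called, with a median log2 fold change of -0.22. The ROCK kinases differed in sign: ROCK1 was lower in fast cells (from 110 to 86.5 CPM; -0.35 ± 0.03; edgeR adjusted p = 4.11e-13) and ROCK2 higher (from 152 to 176 CPM; 0.21 ± 0.03; edgeR adjusted p = 2.78e-07). ROCK1 has a pseudogene copy, ROCK1P1, that can share its reads. CALM3, a calmodulin gene, rose by 0.23 ± 0.02 and STK17B, a kinase of the DAPK family, by 0.26 ± 0.04, while PAK1, a kinase activated by Rac and Cdc42, had -0.30 ± 0.04. DAPK1, a death-associated kinase that phosphorylates the regulatory light chain, had 907 counts over the parental libraries and 0 over the fast ones, which makes it at least 308-fold lower (floor of 3 counts over the population).

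Of 10 tested myosin phosphatase genes, 2 were higher, 4 lower and 4 not called (median -0.02). PPP1R16A (0.41 ± 0.03) and PPP1R12C (0.25 ± 0.03), which like PPP1R12A are targeting subunits, were higher. PPP1R14B, an inhibitor of the phosphatase (-0.36 ± 0.03), NUAK1, a kinase that acts on PPP1R12A (-0.30 ± 0.05), and PPP1CA, a catalytic subunit gene (-0.17 ± 0.03), were lower. PPP1CC and PPP1CB are catalytic subunit genes too. PPP1CC was lower (-0.17 ± 0.03, edgeR adjusted p = 7.79e-07) and PPP1CB was not called (0.04 ± 0.03, edgeR adjusted p = 0.226). The sign of PPP1CA turned when its neighbours' median was entered as an offset (0.06; edgeR adjusted p = 0.0579).

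The small GTPase genes upstream of the ROCK kinases also differed in sign. RHOA fell from 587 to 441 CPM (-0.41 ± 0.02; edgeR adjusted p = 1.09e-16), while RHOC rose from 150 to 186 CPM (0.31 ± 0.03; edgeR adjusted p = 2.14e-12). RHOB (0.48 ± 0.13) rose by 0.85 in batch 1 and had 0.09 in batch 2, and its call over both batches was lost when the libraries of each group were summed (edgeR adjusted p = 0.440). ARHGEF1, an activator of RhoA, rose by 0.45 ± 0.02, while the activator ARHGEF11 (-0.38 ± 0.03) and the GTPase-activating protein ARHGAP29 (-0.41 ± 0.03) were lower. With the neighbour offset ARHGEF11 was at -0.01 (edgeR adjusted p = 0.801) and ARHGAP29 at 0.05 (edgeR adjusted p = 0.188).

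Of 21 tested partners of myosin filaments, 8 were higher, 9 lower and 4 not called (median -0.06). LLGL1 (0.53 ± 0.03), a polarity protein that binds myosin II, MYO18A (0.48 ± 0.03), a myosin that joins its filaments, and ANLN (0.36 ± 0.03), which links actin and myosin in the cytokinetic ring, were higher. At 1 CPM or more on average, the 3 largest called falls were in the Shroom family of ROCK-recruiting scaffolds: SHROOM2 (-1.24 ± 0.04), SHROOM3 (-0.52 ± 0.05) and SHROOM1 (-0.37 ± 0.04). SHROOM4, below that level, had 445 counts, all in parental libraries, and was singled out after its values were seen. SHROOM1 was no longer called with the neighbour offset (-0.04; edgeR adjusted p = 0.414), nor was PAK1 (-0.09; edgeR adjusted p = 0.0678).

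Other myosins did not show one direction either. A list of 21 muscle myosin chains also held MYL6B, which is not confined to muscle. Of the 21 genes, 8 were tested, of which 4 were higher, 1 lower and 3 not called, and 4 had no count in any library. MYH11 (0.00 ± 0.07), MYH3 (-0.07 ± 0.07) and MYH16 (0.12 ± 0.13) were not called by edgeR (adjusted p = 0.998, 0.356 and 0.457). MYH7B (0.49 ± 0.12), MYH15 (0.49 ± 0.10) and MYL6B were higher and MYL5 (-0.26 ± 0.04) was lower, and with the neighbour offset MYH15 (0.01; edgeR adjusted p = 0.963) and MYL5 (-0.08; edgeR adjusted p = 0.0562) were not called. Of 17 tested unconventional myosins 7 were higher and 7 lower. At a mean of at least 1 CPM the largest called changes were in MYO1C (0.48 ± 0.02) and MYO6 (0.40 ± 0.03) in 1 direction and in MYO5B (-3.03 ± 0.13; from 7.09 to 0.853 CPM) and MYO1F (-1.63 ± 0.15) in the other.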

How the data were processed

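Reads of 12 libraries had been counted per gene, and the authors deposited raw counts with no normalization. Per the submitters' processing notes, the tools were Trimmomatic 0.32, STAR 2.3.0e and featureCounts 1.4.4 with builds hg19 and GRCh37. The test was that of edgeR 4.0.16 in R 4.3.3, on these counts, after TMM and its low-count filter (minimum count 10, total 15, by population and batch), which left 22668 genes, with a robust quasi-likelihood fit to all 12 libraries. The effect over both batches had batch as a term, and a fit of 4 group means gave the effects within batches and their difference. Benjamini-Hochberg adjustment ran over all tested genes (threshold 0.05). SE is the standard error of a log2 fold change, and SD is over libraries. Transcript lengths, sequences and gene order came from GENCODE 29 (GRCh38), another build than that of the counts, matched by gene ID for 52338 of 60234 genes. Of 163 entries in the gene lists, 162 were matched (PECAM1 was not).

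The members and gene lists were chosen with earlier results of these data known. All 10 members were named, with the 3 largest called rises and falls of each pathway list (mean of 1 CPM or more, same sign in both batches), the genes of the muscle myosin list at 1 CPM or more, the 2 largest rises and falls of unconventional myosins, and markers of the line. DAPK1 and MYOCD and other markers at 0 are given by their counts, and cell type markers outside the line were named after their values were seen. PPP1CB and PPP1CC were also named after their values were seen. Some items of these lists are not reported here. Libraries of the same group differed beyond counting noise in every pair (index of dispersion 3.32 to 8.36), so none was merged. The steps were tested on simulated counts. Alternatives tried were RLE size factors, DESeq2 1.42.0, limma-voom (limma 3.58.1), other filters, no batch term, a replicate block, summed libraries, the neighbour offset and leaving out each library. Lengths of principal transcripts were an alternative chosen after seeing the data.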

Additional observations from a re-analysis of the deposited data

Results flagged for a closer look

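The effect of population differed between batches, by edgeR's test of that difference itself, for MYLK and for 4 other genes of its pathway. For MYLK the log2 fold change of batch 2 minus that of batch 1 was 0.23, a larger rise in batch 2, with both populations lower in batch 2. For PPP1R12C, a phosphatase targeting subunit, it was -0.19 (0.34 in batch 1 and 0.15 in batch 2; edgeR adjusted p = 0.00930). For NUAK1, the kinase that acts on PPP1R12A, it was -0.34 (-0.13 and -0.47; edgeR adjusted p = 0.000603). The GTPase gene RHOB had -0.77 (0.85 and 0.09; edgeR adjusted p = 1.01e-07), with fast libraries between 14 and 25.5 CPM and parental ones between 12.8 and 14.6 CPM. ARHGAP29, a GTPase-activating protein, had 0.15 (-0.49 and -0.34; edgeR adjusted p = 0.0433). The call for MYLK was lost when fast library 1 of batch 1 or parental library 1 of batch 2 was left out (edgeR adjusted p up to 0.0786). That for PPP1R12C was lost without any 1 of the 3 fast libraries of batch 2, parental library 2 of batch 1 or parental library 3 of batch 2 (up to 0.210). That for ARHGAP29 was lost without fast library 1 or 2 of batch 1, parental library 1 of batch 1 or parental library 1 or 2 of batch 2 (up to 0.154), while those for NUAK1 and RHOB were kept in all 18 alternatives.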

How the results depend on the processing

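MYH9, MYH10, MYL6, MYL9, MYL12A, MYLK and PPP1R12A kept their direction and call over both batches and within each batch in every alternative run, and MYL12B lost its call only with the neighbour offset. Over all genes, 396 had a higher and 827 a lower effect in batch 2. The lower count was 522 with RLE size factors and 411 with no low-count filter. The higher count was 800 with DESeq2, 966 with no filter and 740 at a mean of at least 1 CPM. Leaving out 1 library gave 299 to 819 higher and 337 to 807 lower.

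Values near 0 changed sign. The difference between batches for MYL6 (-0.01) was 0.016 with RLE and with DESeq2, 0.022 with the 1 CPM filter, 0.047 with no filter and -0.041 to 0.063 without single libraries. That of PPP1R12A was -0.0012 with limma-voom and -0.034 to 0.086 without single libraries, and that of MYL12A was -0.016 to 0.066 without them. PPP1R12B within batch 2 was 0.0031 with RLE, 0.0032 with DESeq2, 0.023 with no filter and -0.058 to 0.112 without single libraries. MYH11 over both batches was -0.0085 with RLE, -0.0084 with DESeq2, -0.00034 with limma-voom, -0.0042 with no filter, -0.023 at 1 CPM, -0.00096 with no batch term, -0.0014 with the replicate block and -0.028 to 0.046 without single libraries. PPP1CA (0.060) and ARHGAP29 (0.046) turned with the neighbour offset. With 25 neighbours on each side MYL12B was at -0.074 and PPP1R12A at 0.074 relative to them. As shares of counts with no length, MYL9 was 11.9% of regulatory light chains in parental and 4.82% in fast cells. The cause of these changes was not tested.

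Replicate numbers did not pair the libraries: same-number correlations ran from -0.11 to 0.09, and 2 of the fast libraries correlated best with their own number. With a replicate block, 7024 genes were higher and 6942 lower over both batches, and the calls for the batch difference of MYLK (0.23; edgeR adjusted p = 0.0507) and ARHGAP29 (0.15; 0.0882) and for RHOB over both batches (0.48; 0.0549) were lost. RHOB was also uncalled when the libraries of each population and batch were summed (0.48; edgeR adjusted p = 0.440). PPP1R12C lost its batch difference with no filter (-0.13; edgeR adjusted p = 0.177). MYH14 is limited by depth, and a change under the count floor was not detectable.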
